A study of Mus musculus with 12 samples.

Results

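The drug metabolism enzyme families were followed through the duodenum and spleen of mice given an antibody that activates the lymphotoxin beta receptor (LTbR). Members were the count table rows named as cytochromes P450 of families Cyp1 to Cyp4, carboxylesterases Ces1 to Ces3, UDP-glucuronosyltransferases Ugt1a and Ugt2, sulfotransferases (Sult) or glutathione S-transferases (Gst), with at least 60 counts summed over the 6 duodenum libraries. By name 155 rows matched, and 112 of them met the minimum, out of 23329 rows in the table. The 43 rows left out were below it, 14 of them at 0 in duodenum. Just inside the minimum lay Cyp2j11 with 61 counts, Sult6b1 with 61 and Cyp2w1 with 63, and just outside lay Gsto2 with 57, Cyp2j12 with 52 and Cyp2d13 with 49. The largest families were Cyp2 with 28 members, Cyp4 with 14, Ugt2 with 10, Cyp3 with 9 and Ugt1a with 8.

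Wild type C57BL/6J mice, an inbred laboratory strain, aged 2 months, received AC H6, an agonist antibody to LTbR, or an isotype control. The dose was 100 ul at 1 mg/ml per animal, and RNA of spleen and duodenum was sequenced after 24 hours. There were 3 libraries in each of 4 groups, and values for libraries are given in the order 1, 2 and 3. Nothing in the labels says that the libraries of a group are separate mice. The p-values therefore reflect only how these samples spread, which may be technical. LTbR belongs to the TNF receptor family, is carried by stroma, epithelium and myeloid cells, and signals to NF-kB.

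Drug metabolism is usually divided into steps. Cytochromes P450 oxidise fat-soluble foreign compounds, steroids and fatty acids, and carboxylesterases split esters and amides. The products are then made water-soluble by transferases that add glucuronic acid (Ugt), sulfate (Sult) or glutathione (Gst). The liver is the main site, and the absorptive enterocytes of the upper small intestine, which meet swallowed compounds first, are another. Receptors for foreign compounds and lipids, such as the pregnane X receptor (Nr1i2), the constitutive androstane receptor (Nr1i3), the aryl hydrocarbon receptor (Ahr) and PPAR alpha (Ppara), set the transcription of many of these genes.

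Total counts ran from 13874091 to 45847467 per library. The 12 enterocyte markers summed to 33643 to 35782 CPM (the usual depth-scaled counts, with scaling factors set within the tissue) in the duodenum isotype libraries and to at most 101 CPM in any spleen library, while 7 lymphocyte markers summed to at least 2666 CPM in every spleen library. Acinar markers of the pancreas, which lies against the duodenum, were uneven: they summed to 42.0, 1456 and 84.0 CPM in the duodenum isotype libraries and to 30.8, 495 and 5104 CPM in the AC H6 libraries. Markers of hepatocytes stood apart in 1 library: they summed to 104 CPM in spleen AC H6 3, against at most 4.59 CPM in the other spleen libraries. Albumin (Alb) was at 55.5 CPM there and at no more than 0.656 CPM in any other library of either tissue. For 77 of the 112 members the duodenum isotype 2 library was the lowest of the isotype libraries.

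Under the isotype antibody the families were mostly genes of the duodenum. Per length of exon, 105 of the 112 members were higher in duodenum isotype than in spleen isotype libraries, with a median over members of 16.1 against 0.136 CPM per kilobase. No test is given, because members had to have counts in duodenum. In the duodenum isotype libraries the members held 2.01% to 2.42% of all counts. The highest level per length was that of Gsta1, an alpha class glutathione transferase of the gut and liver, at 1996 ± 609.9 CPM per kilobase (SD, n = 3). Below it the levels were 635 ± 84.8 for the carboxylesterase Ces2c, 587 ± 114 for Gsta4, which clears the lipid peroxidation product hydroxynonenal, and 584 ± 45.7 for Cyp3a13, an intestinal P450 of the Cyp3a family. The spreads of these levels overlapped. Next came Gsto1 at 497 ± 16.3, Ces2d-ps at 484 ± 71.5, Ugt2b34 at 423 ± 48.0 and Ugt1a1 at 409 ± 57.6 CPM per kilobase.

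A few members ran the other way, with 7 higher per length in spleen isotype. Cyp4f18, a P450 of leukocytes that hydroxylates leukotriene B4, was at 26.4 ± 1.11 CPM per kilobase in spleen and 2.42 ± 0.331 in duodenum. Levels of Cyp1b1, which oxidises oestrogens and polycyclic hydrocarbons and is found in stroma, were 11.8 ± 1.33 and 0.811 ± 0.0594, and those of the phenol sulfotransferase gene Sult1a1 were 10.3 ± 1.80 and 3.58 ± 0.585 CPM per kilobase. In the spleen 57 members were under 1 CPM in every library.

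After AC H6, most of these genes were lower in duodenum. Of 110 members tested, 62 fell (56.4%, against 16.1% of all 15667 genes tested), 7 rose (6.36%, against 18.5% of all genes) and 41 were not called (edgeR, quasi-likelihood F-test, p-values adjusted by Benjamini and Hochberg). The median log2 fold change of the tested members was -0.42, beside 0.01 over all genes, and 90 of the 110 had a negative value. In 61 members (55.5%, against 23.7% of all genes) every AC H6 library lay below every isotype library. That held for 55 of the 62 that fell, while the groups overlapped in the other 7. All 7 that rose had every AC H6 library above every isotype library. The share of all genes lying above in this way, and the share of all called genes that separate, are not given here. A call rests on the same libraries, so the separation of called genes is not further support. Ces1b and Cyp2j11 were too low to be tested. Of the 66 tested members with a mean of at least 10 CPM, 45 fell and 1 rose, with a median of -0.42. The share over all genes of that level is not given here, since the 16.1% and 18.5% cover genes of any level. In bulk tissue, fewer cells of a type and less RNA per cell cannot be told apart.

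**Figure D1:**
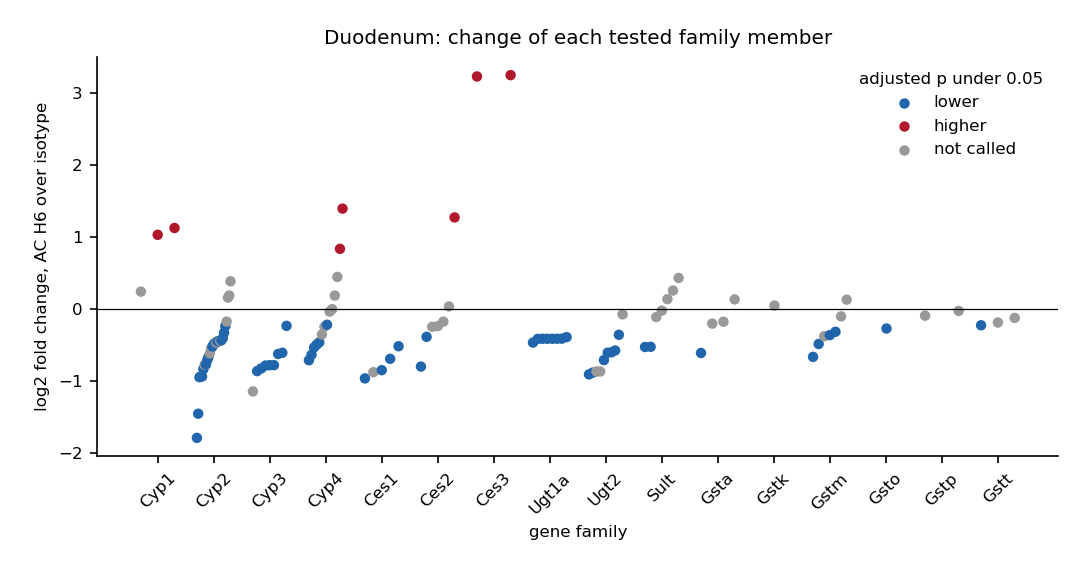
Log2 fold change of AC H6 over isotype in duodenum (vertical axis) for each of the 110 tested members, by family (horizontal axis), each point being 1 gene coloured by its call in edgeR. Most points lie below 0, from -1.79 for Cyp2w1 upward, and the 7 risen genes lie in Cyp1, Cyp4, Ces2 and Ces3, with Ces3a highest at 3.25.

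The AC H6 libraries of duodenum lay close together, while the isotype libraries spread more widely. The median of the tested members, taken as the log2 ratio to the isotype mean, was 0.15, -0.16 and 0.01 in the isotype libraries and -0.39, -0.38 and -0.44 in the AC H6 libraries. Cell type markers moved beside the members. Of 12 enterocyte markers 8 fell and 1, Apoa4, rose, with a median of -0.27, and their summed level went from 33643 to 35782 CPM under isotype to 29807 to 30834 CPM under AC H6. Of 6 markers of crypt and stem cells 6 rose, with a median of 0.57 and sums of 517 to 563 against 761 to 981 CPM. Scaling the libraries to equal enterocyte markers, a setting chosen after the data had been seen, moved the median of all genes to 0.24. It then called 43.2% of all genes and 34 members (30.9%), 13 higher and 21 lower. All 21 were among the 62, and the median of the members was -0.18. With isotype 2 and AC H6 3 left out, the duodenum libraries with the most acinar reads, 67 members were called, 6 higher and 61 lower. Without AC H6 3 alone 41 were called, and without isotype 2 alone 75.

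**Figure D2:**
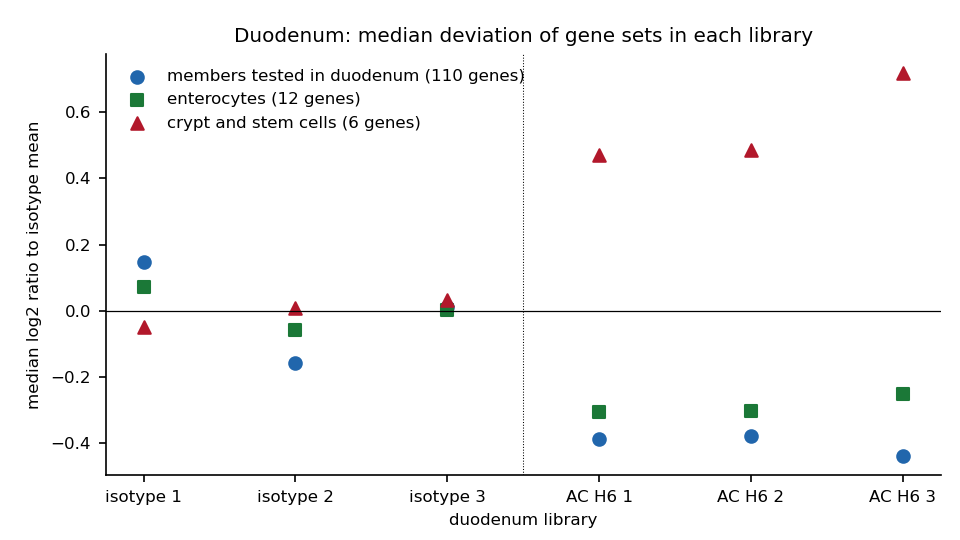
Median log2 ratio to the isotype mean (vertical axis) in each duodenum library (horizontal axis) for the 110 tested members, 12 enterocyte markers and 6 crypt and stem cell markers. Members lie at -0.38 to -0.44 in the AC H6 libraries, enterocyte markers at -0.25 to -0.31 and crypt markers at 0.47 to 0.72.

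The 250 bases before the transcription start were searched in 96 of the 112 members, those found in RefSeq's promoter table for GRCm38.p6, against 27025 genes in that table. Both strands were searched for 4 short motifs of regulators of these genes. CAAAGTCCA, a core recognised by the liver and gut factor HNF4, stood before 9 of the 54 searched genes that fell (16.7%), 0 of the 6 that rose and 0 of the 34 not called (2 more were not tested), and before 0.451% of all genes. These 9 are Cyp2c40, Cyp2c65, Cyp2c67, Cyp2c68, Cyp2c69, Cyp3a11, Cyp3a16, Cyp3a41a and Cyp3a41b, neighbours in 2 tandem clusters whose promoters resemble each other, so they do not count as separate cases. AGGTCA, a motif of many nuclear receptors, stood before 15, 0 and 3 of those 3 classes, and before 15.8% of all genes. GCGTG, the core of the aryl hydrocarbon receptor's element, stood before 8, 2 and 8, and before 30.9%. TGACNNNGC, the antioxidant element bound by NRF2, stood before 2, 1 and 2, and before 11.5%. Among the 15 fallen genes with AGGTCA were Cyp3a11, Cyp3a25, Cyp3a44, Cyp3a59, Ugt2b5, Ugt2b35, Ugt2b36, Ugt2b37, Ugt2b38, Ugt1a7c and Ugt1a9. Many of these are neighbours in clusters too, so the 15 do not count as separate cases. The promoters of members held a median of 46.8% GC, against 52.4% over the table.

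Promoters of 4 such P450 genes are shown beside those of the glucuronidation gene Ugt1a1 and of Ces3b, which rose, neither of which holds a match. Each is written 5′ to 3′ on the gene's strand (GRCm38.p6), with matches to CAAAGTCCA on either strand in capitals. A match describes letters and is not a site shown to be bound.
Cyp2c65, chr19:39060756-39061005, plus strand: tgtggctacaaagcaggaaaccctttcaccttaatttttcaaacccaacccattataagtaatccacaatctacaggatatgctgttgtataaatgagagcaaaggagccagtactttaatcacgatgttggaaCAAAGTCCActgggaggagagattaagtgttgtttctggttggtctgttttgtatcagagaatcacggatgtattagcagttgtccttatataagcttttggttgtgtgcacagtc
Cyp2c40, chr19:39812815-39813064, minus strand: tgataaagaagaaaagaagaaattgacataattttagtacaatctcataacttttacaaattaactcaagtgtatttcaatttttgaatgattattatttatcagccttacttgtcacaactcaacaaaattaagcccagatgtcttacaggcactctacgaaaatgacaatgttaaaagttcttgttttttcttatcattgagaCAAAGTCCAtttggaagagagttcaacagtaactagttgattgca
Cyp3a16, chr5:145469724-145469973, minus strand: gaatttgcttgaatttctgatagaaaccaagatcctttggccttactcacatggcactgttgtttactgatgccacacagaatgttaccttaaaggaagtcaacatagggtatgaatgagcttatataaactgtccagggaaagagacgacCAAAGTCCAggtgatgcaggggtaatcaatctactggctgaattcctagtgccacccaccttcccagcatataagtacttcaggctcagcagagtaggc
Cyp3a41a, chr5:145720137-145720386, minus strand: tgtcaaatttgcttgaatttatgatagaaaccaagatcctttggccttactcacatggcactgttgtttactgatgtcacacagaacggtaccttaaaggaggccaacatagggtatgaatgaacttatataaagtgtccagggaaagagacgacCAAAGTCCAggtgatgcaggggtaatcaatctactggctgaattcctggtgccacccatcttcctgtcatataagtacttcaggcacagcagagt
Ugt1a1, chr1:88211709-88211958, plus strand: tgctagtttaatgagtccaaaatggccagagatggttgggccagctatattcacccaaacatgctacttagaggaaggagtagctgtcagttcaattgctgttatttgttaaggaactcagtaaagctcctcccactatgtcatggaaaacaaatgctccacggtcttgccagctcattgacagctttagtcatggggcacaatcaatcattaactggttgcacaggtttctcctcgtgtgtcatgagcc
Ces3b, chr8:105083505-105083754, plus strand: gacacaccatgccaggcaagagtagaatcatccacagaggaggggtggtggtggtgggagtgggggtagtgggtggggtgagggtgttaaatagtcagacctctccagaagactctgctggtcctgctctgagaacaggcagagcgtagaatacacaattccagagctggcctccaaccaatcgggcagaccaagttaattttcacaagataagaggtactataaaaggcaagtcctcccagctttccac
The CAAAGTCCA match starts 116 bases before the start of Cyp2c65, 45 before Cyp2c40, 99 before Cyp3a16 and 95 before Cyp3a41a.

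Among the cytochromes P450, 8 of the 9 Cyp3a genes fell, beside 16.1% of all genes, with Cyp3a57 at -1.15 ± 0.40 not called. With the enterocyte scaling 3 of the 9 were called lower. Cyp3a11 (chromosome 5, 145854426 to 145879964, minus strand, positions in GENCODE M21 on GRCm38), the mouse counterpart of the main human drug-oxidising P450, read 638, 828 and 958 CPM under isotype and 576, 509 and 502 CPM under AC H6. The groups did not overlap, isotype 1 being the lowest isotype library, and the log2 fold change was -0.61 ± 0.13 (SE, adjusted p = 0.00892 by edgeR). Its adjusted p was 0.053 with the enterocyte scaling and 0.0572 without the 2 libraries richest in acinar reads. Cyp3a25 (chromosome 5, 145977194 to 146009618, minus strand) read 241, 225 and 252 CPM under isotype and 146, 135 and 124 CPM under AC H6. The groups were far apart and each was narrow, a change of -0.83 ± 0.08 (adjusted p = 1.96e-04 by edgeR). Cyp3a59 had the smallest adjusted p of the family, going from 21.1 ± 0.899 to 11.5 ± 0.661 CPM (-0.87 ± 0.07, adjusted p = 8.53e-05 by edgeR). The most abundant, Cyp3a13, changed least, from 1461, 1359 and 1602 to 1179, 1195 and 1376 CPM (-0.24 ± 0.08, adjusted p = 0.0497 by edgeR), with AC H6 3 inside the isotype range. Its call was kept in 1 of the 6 fits that left out 1 library. Cyp3a16, Cyp3a41a, Cyp3a41b and Cyp3a44, whose sequences are close enough to share reads, lay at -0.79, -0.78, -0.78 and -0.63. They do not count as separate cases.

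The Cyp2 family, which oxidises drugs, steroids and arachidonic acid, had 18 of 27 tested members lower and none higher. Cyp2b10 (chromosome 7, 25897620 to 25926624, plus strand), the classic target of the constitutive androstane receptor, read 192, 198 and 228 CPM under isotype and 113, 121 and 88.0 CPM under AC H6. The groups were far apart, with AC H6 3 the lowest, at a change of -0.94 ± 0.12 (adjusted p = 9.01e-04 by edgeR). Its neighbour in sequence Cyp2b13 was under 1 CPM in every library and lay at -1.46 ± 0.34.

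The Cyp2c genes, all on chromosome 19, made up 9 of the 18. Cyp2c65 (chromosome 19, 39061015 to 39093944, plus strand), the most abundant of them, read 542, 389.6 and 519 CPM under isotype and 372, 356 and 333 CPM under AC H6, a change of -0.45 ± 0.12 (adjusted p = 0.0181 by edgeR). Here isotype 2 came close to AC H6 1, and the call was kept in 2 of the 6 fits that left out 1 library. Cyp2c68 lay at -0.45 ± 0.08, Cyp2c66 at -0.67 ± 0.16 and Cyp2c55, which hydroxylates arachidonic acid, at -0.94 ± 0.17, each called. Cyp2c40, whose promoter is printed above, went from 34.2 ± 3.98 to 25.2 ± 1.16 CPM (-0.44 ± 0.08, adjusted p = 0.00528 by edgeR). Cyp2c38 was not called (-0.55 ± 0.35).

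Some members of Cyp2d fell as well, and of Cyp2j the gene Cyp2j6. Cyp2d26 went from 474 ± 44.2 to 401 ± 20.1 CPM (-0.24 ± 0.08) and Cyp2d22 from 35.4 ± 1.23 to 28.1 ± 1.41 CPM (-0.33 ± 0.05). Cyp2j6, from a subfamily that epoxidises arachidonic acid, lay at -0.48 ± 0.15, while Cyp2j5 and Cyp2j9 were not called. With 1 library left out, Cyp2d26 and Cyp2j6 each kept the call in 1 of 6 fits, and Cyp2d22 in 6 of 6. Cyp2d9 and Cyp2d40 were called in 0 of those 6. Cyp2s1, a P450 of epithelia outside the liver, read 81.8, 76.3 and 75.9 CPM under isotype and 60.8, 59.1 and 46.4 CPM under AC H6, with the groups apart (-0.49 ± 0.10, adjusted p = 0.00640 by edgeR). Cyp2w1 had the lowest log2 fold change of all members, -1.79 ± 0.33, at a low level of 0.526, 0.557 and 0.505 CPM under isotype and 0.0773, 0.189 and 0.187 CPM under AC H6.

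Of the 3 Cyp1 genes 2 rose and none fell. Cyp1a1 (chromosome 9, 57687928 to 57703824, plus strand), the best known target of the aryl hydrocarbon receptor, read 13.1, 9.30 and 17.3 CPM under isotype and 20.3, 32.7 and 27.7 CPM under AC H6. The lowest AC H6 library was above the highest isotype library by a small margin, and the change was 1.03 ± 0.23 (adjusted p = 0.00973 by edgeR). Among the 66 members of at least 10 CPM it was the 1 that rose. Cyp1a2, its head-to-head neighbour on chromosome 9 and a P450 of the liver, was under 1 CPM in all libraries and lay at 1.12 ± 0.33 (adjusted p = 0.0288 by edgeR, and adjusted p = 0.281 without isotype 2 and AC H6 3). Cyp1b1 was not called (0.24 ± 0.16). Of other genes of this receptor pathway, the target gene Tiparp fell (-0.50 ± 0.10), and Ahrr, the repressor, and Ahr itself lay at 0.37 ± 0.17 and 0.11 ± 0.08, neither called.

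Cyp4 enzymes hydroxylate the end of fatty acids and leukotrienes, and 6 of 14 fell while 2 rose. Cyp4v3, a fatty acid hydroxylase, read 447, 387 and 421 CPM under isotype and 301, 302 and 285 CPM under AC H6, with the groups apart (-0.50 ± 0.07, adjusted p = 0.00107 by edgeR). Cyp4f16 lay at -0.72 ± 0.14. In the Cyp4a cluster, targets of PPAR alpha, Cyp4a10 changed by -0.54 ± 0.15, Cyp4a31 by -0.64 ± 0.16 and Cyp4a32 by -0.47 ± 0.12, each called. Of the 6 fits that left out 1 library, Cyp4a10 kept its call in 1, Cyp4a31 in 5 and Cyp4a32 in 4. The most abundant of the family, Cyp4f14, went from 645 ± 20.1 to 642 ± 55.8 CPM and was not called (-0.01 ± 0.07).

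Cyp4f18 (chromosome 8, 71988482 to 72009626, minus strand) rose, reading 3.82, 4.34 and 3.33 CPM under isotype and 7.45, 6.21 and 6.82 CPM under AC H6 (0.83 ± 0.13, adjusted p = 0.00210 by edgeR). Beside it the leukocyte gene Ptprc went from 34.0 ± 3.03 to 51.7 ± 5.20 CPM (0.61 ± 0.09), and 4 of 4 tested macrophage markers rose, with sums of 110 to 115 CPM under isotype and 192 to 201 CPM under AC H6. Their part in the Cyp4f18 rise was not tested. The exons of Cyp4f18 overlap those of Zfp961 on the other strand, and reads of the pair cannot be told apart in libraries without strand. Zfp961 had a mean of 24.3 CPM under isotype and 29.3 CPM under AC H6, above Cyp4f18 in both groups. The part of Zfp961 reads in the Cyp4f18 rise was not tested. Cyp4f39, the skin fatty acid hydroxylase, rose from a low level, 0.307, 0.469 and 0.202 CPM, to 1.06, 1.14 and 0.492 CPM (1.39 ± 0.42, adjusted p = 0.0329 by edgeR). AC H6 3 lay just above isotype 2, and the call was kept in 2 of the 6 fits that left out 1 library.

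**Figure D3:**
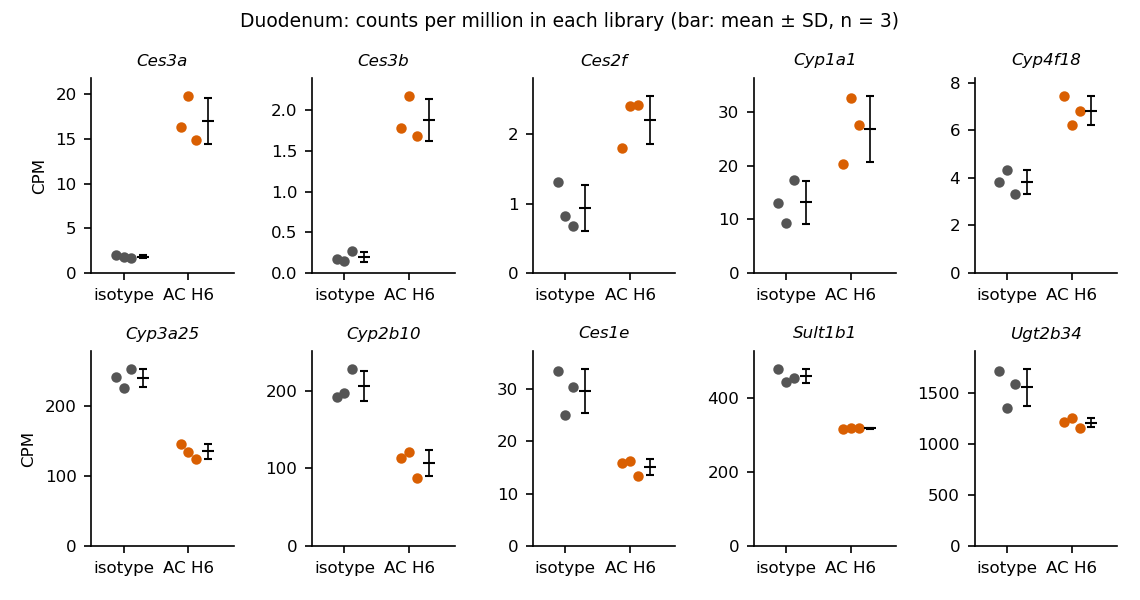
CPM (vertical axes, each from 0) of 10 members in the 3 isotype and 3 AC H6 duodenum libraries (horizontal axes), with points for libraries and bars for the mean and SD. In each of the 10 genes the groups do not overlap; the 5 in the upper row are higher under AC H6 and the 5 in the lower row are lower.

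Carboxylesterases are given in their order on chromosome 8, and no test of position was run. The Ces1 genes, on the minus strand, encode esterases and lipid hydrolases, and 4 of the 5 tested fell. Ces1e (chromosome 8, 93201218 to 93229619, minus strand) read 33.5, 25.1 and 30.4 CPM under isotype and 15.8, 16.2 and 13.4 CPM under AC H6, with the groups apart (-0.97 ± 0.11, adjusted p = 5.71e-04 by edgeR). Ces1f lay at -0.70 ± 0.16, Ces1d at -0.52 ± 0.11 and Ces1g at -0.85 ± 0.27, where AC H6 2 lay above isotype 2. Without isotype 2 Ces1g lay at -1.12 (adjusted p = 0.00354 by edgeR) and without AC H6 2 at -1.03 (adjusted p = 0.0494 by edgeR), and leaving out any of the other 4 libraries ended its call. Ces1c, at under 1 CPM, was not called (-0.88 ± 0.36).

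Of the Ces2 genes, esterases of the intestine on the plus strand, 2 of 7 fell and 1 rose. Over all genes tested 16.1% fell and 18.5% rose. Ces2a went from 61.9 ± 17.5 to 35.4 ± 3.20 CPM (-0.80 ± 0.18, adjusted p = 0.0108 by edgeR) and Ces2e from 720.1 ± 64.8 to 549 ± 28.1 CPM (-0.39 ± 0.08, adjusted p = 0.00540 by edgeR). Ces2c, the second highest member per length, went from 1245 ± 172 to 1054 ± 44.0 CPM and was not called (-0.24 ± 0.10, adjusted p = 0.0815 by edgeR). Ces2g was not called either, at 0.03 ± 0.09. Ces2f (chromosome 8, 104947356 to 104960047, plus strand) rose from a low level, reading 1.32, 0.821 and 0.673 CPM under isotype and 1.80, 2.40 and 2.41 CPM under AC H6, with the groups apart (1.27 ± 0.25, adjusted p = 0.00591 by edgeR).

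The highest rises of all members were in Ces3a and Ces3b, neighbours at the far end of this cluster and known chiefly from the liver. Ces3a (chromosome 8, 105048601 to 105058413, plus strand) read 1.97, 1.76 and 1.65 CPM under isotype and 16.3, 19.8 and 14.9 CPM under AC H6. The 3 AC H6 libraries lay close together and far above the isotype libraries, a change of 3.25 ± 0.14 (adjusted p = 4.72e-06 by edgeR). Ces3b (chromosome 8, 105083753 to 105093929, plus strand) read 0.175, 0.147 and 0.269 CPM under isotype and 1.78, 2.18 and 1.69 CPM under AC H6, again with no overlap (3.23 ± 0.27, adjusted p = 9.90e-05 by edgeR). Among liver markers in these libraries Alb was at 0.147 to 0.645 CPM, Fgb, a fibrinogen chain, was at 0 in all but AC H6 1 (0.0258 CPM) and Ahsg was at most 0.0877 CPM. Of the 5 hepatocyte markers tested in duodenum, Ttr and Serpina1a rose (1.12 ± 0.14 and 1.82 ± 0.24), Cps1, which enterocytes also express, fell (-0.53 ± 0.09), and Alb and Apoh were not called (0.90 ± 0.41 and -0.44 ± 0.27). The markers' part in the Ces3 rise was not tested.

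**Figure D4:**
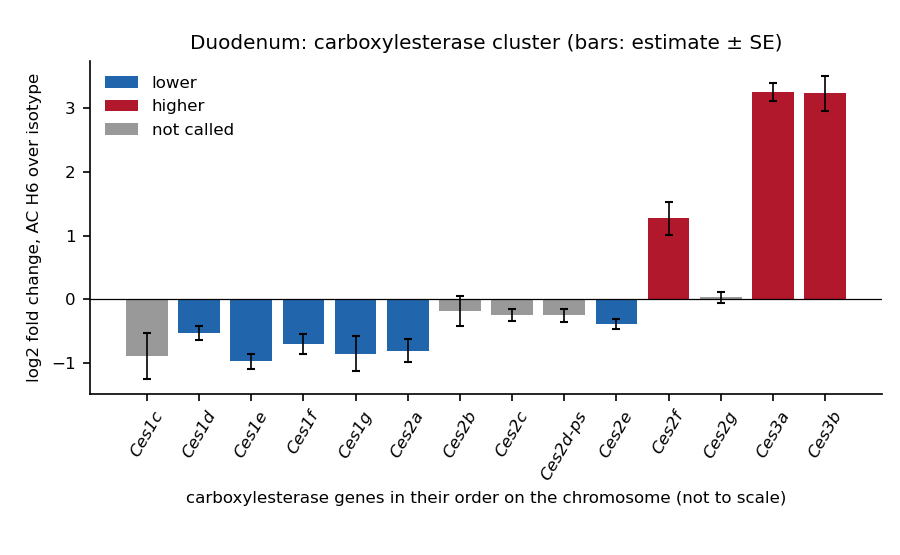
Log2 fold change of AC H6 over isotype in duodenum (vertical axis, bars with SE) for the 14 tested carboxylesterase genes in their order on chromosome 8 (horizontal axis, not to scale). Ces1c to Ces2e lie below 0, Ces2f, Ces3a and Ces3b at the far end rose, and Ces2g between them lies at 0.03.

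Glucuronidation genes fell in both families, with the 8 Ugt1a rows standing for 1 measurement. Their transcripts join separate first exons to shared last exons on chromosome 1, between 88055388 and 88220002 on the plus strand. Ugt1a10, Ugt1a2 and Ugt1a5 agreed within 1% in all 6 duodenum libraries, as did Ugt1a6b and Ugt1a9. The smallest row, Ugt1a5, held 67.8% of the counts of Ugt1a7c and more of every other row. The rows lay at -0.47 to -0.39, all called. Ugt1a1, whose product conjugates bilirubin, read 887, 662 and 782 CPM under isotype and 569, 567 and 546 CPM under AC H6, with the groups apart (-0.47 ± 0.10, adjusted p = 0.00684 by edgeR). Summing the rows to 1 left 103 tested members, of which 7 rose and 55 fell.

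The rows were also set against Ugt1a5 by subtracting its CPM, which removes reads counted in both. For Ugt1a1 the remainder was 80.8, 78.3 and 88.6 CPM under isotype and 42.4, 41.2 and 38.7 CPM under AC H6. Those groups were wide apart, and wider in proportion than the whole row. For Ugt1a7c, whose row also reaches further downstream, it was 366, 276 and 322 against 236, 265 and 258 CPM, and for Ugt1a6a 26.2, 19.0 and 27.1 against 17.5, 18.3 and 16.6 CPM. No test was run on these differences of rows, which are not counts of single exons.

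Of the Ugt2 family, which conjugates steroids, bile acids and drugs, 7 of 10 fell. Ugt2b34 (chromosome 5, 86889767 to 86906937, minus strand), the most abundant, read 1719.6, 1359 and 1592 CPM under isotype and 1215, 1257 and 1162 CPM under AC H6, without overlap (-0.36 ± 0.08, adjusted p = 0.0115 by edgeR). Ugt2a3 went from 165 ± 20.5 to 101 ± 8.14 CPM (-0.71 ± 0.10, adjusted p = 0.00150 by edgeR) and Ugt2b35 from 153 ± 22.9 to 102 ± 4.25 CPM (-0.58 ± 0.11, adjusted p = 0.00414 by edgeR). Ugt2b5 and Ugt2b38 varied more, at 298, 126 and 223 and 304, 189 and 269 CPM under isotype, and in both the isotype 2 library lay within the AC H6 range. Ugt2b5 (-0.89 ± 0.29, adjusted p = 0.0447 by edgeR) lay at -1.16 without that library (adjusted p = 0.00385 by edgeR), and leaving out any other library ended its call. Ugt2a1 and Ugt2a2, whose counts agreed within 1% because they share exons, were under 1 CPM and not called.

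Of 7 sulfotransferases tested in duodenum 2 fell and none rose, beside 16.1% of all genes lower and 18.5% higher. Sult1b1 (chromosome 5, 87513339 to 87538195, minus strand) sulfates phenols and thyroid hormone. It read 480.2, 445 and 455 CPM under isotype and 317, 321 and 319.7 CPM under AC H6. Its AC H6 libraries lay very close together and below all isotype libraries (-0.53 ± 0.05, adjusted p = 2.99e-04 by edgeR). Its neighbour Sult1d1, which sulfates catecholamines, read 419.5, 451 and 422 CPM under isotype and 289.7, 305 and 300.1 CPM under AC H6, with the groups equally apart (-0.53 ± 0.06, adjusted p = 3.56e-04 by edgeR). The other 5 tested members were not called: Sult2b1, which sulfates cholesterol, lay at -0.12 ± 0.08, Sult1c2 at -0.03 ± 0.09 and Sult1a1 at 0.25 ± 0.15. Sult1a1 overlaps Ccdc101 on the other strand, and with the enterocyte scaling it was called higher, at 0.48.

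Of 18 glutathione transferases tested 7 fell and none rose. Gsta1, the highest per length, was not called with all libraries, and read 2132, 1126 and 1629 CPM under isotype and 1398, 1361 and 1475 CPM under AC H6, where isotype 2 was below every AC H6 library (-0.21 ± 0.19, adjusted p = 0.422 by edgeR). Without isotype 2 it was called lower, at -0.41 (adjusted p = 0.0199 by edgeR), and without isotype 1 it lay at 0.04 (adjusted p = 0.855 by edgeR). Gsta2, Gsta4, Gstp1, Gstp2 and Gstk1 lay at -0.18, 0.13, -0.03, -0.10 and 0.05, none called, and Gsta4 was called higher with the enterocyte scaling (0.37). Gsta3 fell (-0.61 ± 0.20, adjusted p = 0.0425 by edgeR), though AC H6 2 reached the isotype range.

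The mu class held 4 of the 7 falls among the glutathione transferases. Gstm3 (chromosome 3, 107963696 to 107969283, minus strand) read 216, 176 and 184 CPM under isotype and 134, 124 and 104 CPM under AC H6, with the groups apart (-0.67 ± 0.11, adjusted p = 0.00297 by edgeR). Gstm4, Gstm6 and Gstm7 lay at -0.49 ± 0.11, -0.37 ± 0.11 and -0.32 ± 0.07, while Gstm1 (-0.38 ± 0.14), Gstm2 and Gstm5 were not called. Gsto1, of the omega class, read 891, 830.5 and 851 CPM under isotype and 736, 726 and 683 CPM under AC H6, a narrow but separate change of -0.26 ± 0.06 (adjusted p = 0.00760 by edgeR). Gstt2, of the theta class, fell by a similar amount (-0.23 ± 0.05), and with the enterocyte scaling its value was 0.00 (adjusted p = 0.987).

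Genes that serve these families were lower too. For each list below, the shares over all genes tested in duodenum were 16.1% lower and 18.5% higher. All 6 listed electron donors and haem suppliers of P450 enzymes fell. Por, the reductase that passes electrons to every microsomal P450, lay at -0.23 ± 0.07, Cyb5r3, the cytochrome b5 reductase, at -0.42 ± 0.07 and Alas1, the first enzyme of haem synthesis, at -0.35 ± 0.09. Of 12 genes that supply the conjugates 7 fell. Ugdh, which makes UDP-glucuronic acid, went from 1268 ± 88.8 to 937 ± 81.7 CPM (-0.44 ± 0.08), Papss2, which makes the sulfate donor, lay at -0.33 ± 0.06, and Gclc, the first enzyme of glutathione synthesis, at -0.49 ± 0.09. Cth, which makes cysteine for glutathione, changed most, at -0.89 ± 0.10 (adjusted p = 4.15e-04 by edgeR).

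Among 16 receptors and regulators 8 fell and none rose. Nr1i3 went from 73.3 ± 4.91 to 49.7 ± 5.63 CPM (-0.56 ± 0.09, adjusted p = 0.00210 by edgeR) and Ppara from 101 ± 16.5 to 61.6 ± 5.11 CPM (-0.71 ± 0.12, adjusted p = 0.00263 by edgeR). Nfe2l2, which encodes NRF2, lay at -0.54 ± 0.06, Hnf4a at -0.28 ± 0.06 and Rxra, the common partner of these receptors, at -0.21 ± 0.06. Nr1i2, the pregnane X receptor, was not called (-0.21 ± 0.08). Of 10 NRF2 targets outside the families 4 fell, Nqo1 among them at -0.62 ± 0.14, and Gpx2, a glutathione peroxidase of crypt cells, rose (0.66 ± 0.12). PPAR alpha targets outside the families had 6 of 12 lower, among them the liver fatty acid binding protein gene Fabp1 (-0.61 ± 0.08) and Cpt1a (-0.53 ± 0.06), and none higher.

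Transporters went both ways, beside 16.1% of all genes lower and 18.5% higher in duodenum. Of 14, 5 fell and 2 rose: the conjugate exporter Abcc2 of the apical membrane read 869.6, 743 and 939 CPM under isotype and 521, 547 and 505 CPM under AC H6 (-0.70 ± 0.09, adjusted p = 6.77e-04 by edgeR) and Abcb1a, P-glycoprotein, lay at -0.52 ± 0.15, whereas Abcc1 rose from 14.3 ± 1.81 to 26.0 ± 1.62 CPM (0.85 ± 0.09, adjusted p = 4.01e-04 by edgeR) and Abcc4 lay at 0.51 ± 0.12. Of 17 other drug metabolism enzymes tested 11 fell and none rose, with Dpyd, which breaks down pyrimidines, at -0.63 ± 0.06, the soluble epoxide hydrolase gene Ephx2 at -0.40 ± 0.05 and Aldh1a1 at -0.91 ± 0.25. Every one of these lists had a median below 0 in duodenum, from -0.03 for transporters to -0.40 for the other enzymes. In spleen these lists held 5 calls: Nr1h3, Gsr and G6pdx rose (0.46 ± 0.06, 0.64 ± 0.07 and 0.44 ± 0.06) and Hmox1 and Ephx1 fell (-0.53 ± 0.07 and -0.29 ± 0.06). Tested there were 12 receptors and regulators, 12 genes that supply the conjugates, 9 NRF2 targets and 17 other enzymes. The electron donor, transporter and PPAR alpha lists, with 6, 12 and 12 tested, held no call. Over all genes 608 of 15270 were called in spleen.

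The spleen held few changes. Of 58 members tested, 9 rose (15.5%, against 2.06% of all 15270 genes) and 1 fell (1.72%, against 1.92% of all genes). The unadjusted p of edgeR was under 0.05 in 17 of the 58, 8 of them Ugt1a rows. Over all genes it was under 0.05 in 4260 of the 15270. The median log2 fold change of the members was 0.13, beside 0.00 over all genes. Since 8 of the 9 were Ugt1a rows, the calls stand for 3 separate signals. The Ugt1a rows lay between 0.55 and 0.65. Ugt1a1 read 6.20, 7.83 and 6.81 CPM under isotype and 11.1, 10.5 and 10.9 CPM under AC H6, with every AC H6 library above every isotype library (0.63 ± 0.10, adjusted p = 0.0287 by edgeR). The library with the most hepatocyte marker reads, AC H6 3, lay between the other AC H6 libraries, and without it the change was 0.63 (adjusted p = 0.11). After subtracting the Ugt1a5 row, at most 0.264 CPM remained for Ugt1a1 in any spleen library, and 4.36, 3.75 and 3.84 against 4.41, 5.93 and 4.99 CPM for Ugt1a7c.

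Gsto1 in spleen read 30.3, 31.7 and 28.6 CPM under isotype and 37.6, 35.4 and 37.9 CPM under AC H6, narrowly apart (0.29 ± 0.06, adjusted p = 0.0477 by edgeR). Cyp2s1, the member that fell in spleen, read 5.74, 7.99 and 6.50 CPM under isotype and 3.38, 3.93 and 3.66 CPM under AC H6, with the groups apart (-0.90 ± 0.15, adjusted p = 0.0275 by edgeR). Macrophage markers moved beside these genes, with 3 of 6 higher and sums of 1345 to 1458 CPM under isotype and 1658 to 1797 CPM under AC H6; their part was not tested. Of 7 lymphocyte markers 2 fell in spleen, with a median of -0.29 and sums of 3122 to 3375 CPM under isotype and 2666 to 3033 CPM under AC H6, and their part was not tested either. These calls were not firm. With 1 library left out, 0 members were called in 5 of the 6 fits and 10 were called without AC H6 2. With the replicate numbers as a block 0 were called, although the numbers are not known to pair libraries. Cyp2e1, the ethanol-oxidising P450 of liver, had the highest spleen value, 2.03 ± 1.34 (adjusted p = 0.354 by edgeR), and read 0.726, 0.386 and 0.0792 CPM under isotype and 0.499, 0.118 and 4.61 CPM under AC H6, so that its value rests on AC H6 3.

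The difference of the AC H6 effect between the tissues was tested in 1 fit of all 12 libraries. The duodenum change was called below the spleen change in 18 of 110 members (16.4%, against 9.13% of 16655 genes). It was called above it in 1 (0.909%, against 10.9%). Of the 18, 8 were Ugt1a rows, so the 16.4% counts that 1 signal 8 times. The 8 Ugt1a rows and Gsto1 had opposite calls in the tissues, lower in duodenum and higher in spleen. For Ugt1a1 the difference was -1.12 ± 0.14 (adjusted p = 3.10e-04 by edgeR) and for Gsto1 -0.57 ± 0.08 (adjusted p = 7.51e-04 by edgeR). Cyp4f18 was the member with the opposite sign, 0.80 ± 0.13 (adjusted p = 0.00188 by edgeR), having risen in duodenum and lain at 0.01 ± 0.07 in spleen. Among those well measured in both tissues, Cyp4f16 (-0.80 ± 0.20) and Cyp4v3 (-0.44 ± 0.09) fell in duodenum and lay at 0.07 and -0.08 in spleen, not called. For Ces3a and Ces3b no such comparison can be read, because in spleen AC H6 3 held 81 counts of Ces3a and 38 of Ces3b, against 4 and 0 in the other 5 libraries together. Of the 19, 12 were called in all 12 fits that left out 1 library.

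**Figure D5:**
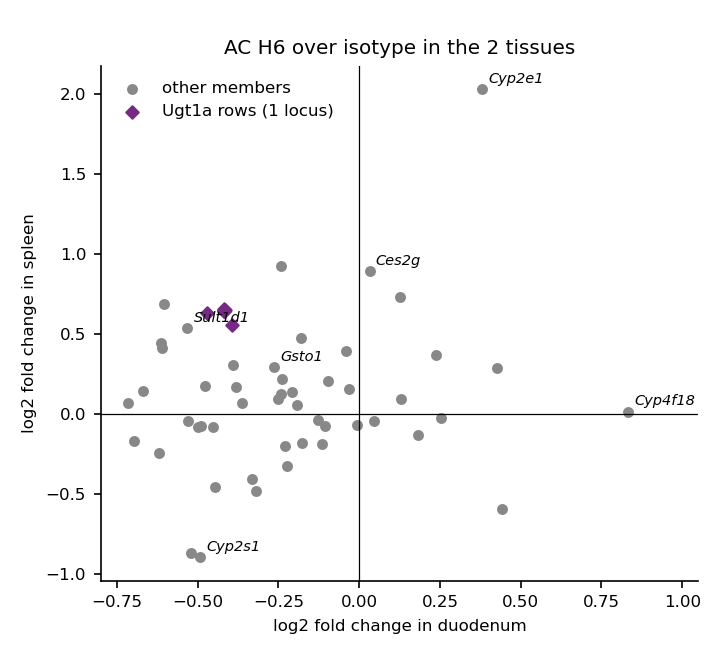
Log2 fold change of AC H6 over isotype in spleen (vertical axis) against duodenum (horizontal axis) for the 58 members tested in both tissues, 1 point per gene, with the Ugt1a rows as diamonds. The 8 Ugt1a rows sit together at the upper left, Cyp4f18 lies far right near 0 in spleen, and Cyp2e1 at the top rests on 1 spleen library.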

How the data were processed

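RNA of 6 duodenum and 6 spleen libraries was sequenced. Per the labels' protocols, total RNA was extracted with Trizol and made into libraries with an Illumina TruSeq RNA kit, a kit without strand marking. The same text names brain as the tissue dissected, although the labels of tissue give spleen and duodenum. The submitters' processing notes list STAR 2.3, bcl2fastq 2.19, edgeR and Trimmomatic, and build mm10. Which tool counted reads, and on which annotation, is not given in the sources used here. For each library the authors deposited whole-number read counts per gene. The count column is headed multiMatchCounts, read here as keeping reads with several matches, so values of close paralogs are uncertain.

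From these counts, edgeR 4.0.16 in R 4.3.3 (TMM scaling, filterByExpr, quasi-likelihood F-test, Benjamini-Hochberg over all genes, calls at an adjusted p under 0.05) was fitted to each tissue alone, and to all 12 libraries for the difference between tissues. CPM use the scaled library sizes of a tissue, and levels per length the union of exons in GENCODE M21, to which all 112 members were matched. The standard error is the log2 fold change divided by the square root of F. Library medians used a pseudocount of 0.1 CPM. Named members were those called (at most 30 per comparison, by smallest adjusted p), the 3 highest per length in each family and all Ugt1a rows. Listed genes were those called, or else up to 3 of smallest p. A few more were named after their values had been seen, among them Cyp4f39, Cyp1a2, Cyp3a57, Cyp2e1, Cyp2c38, Ces1c and Gsta3. The members, lists and motifs were chosen with earlier results of these data known. One listed regulator is not reported here by name. Alternatives were DESeq2-style size factors, 2 other filters on low counts, DESeq2 1.42.0, limma-voom (limma 3.58.1), dominant transcripts removed, 1 fit of all libraries, a replicate block, a member minimum of 600 counts, Ugt1a rows summed and each library left out. The test was tested on simulated data. Counts per library limit the precision of low genes.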

Additional observations from a re-analysis of the deposited data

Results flagged for a closer look

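For 19 members the AC H6 effect differed between duodenum and spleen, by edgeR's test of the interaction of tissue and treatment. Values are the duodenum log2 fold change minus that of spleen. The 8 Ugt1a rows, which share exons and stand for 1 signal, lay at -1.12 (Ugt1a1), -1.08 (Ugt1a2, Ugt1a5, Ugt1a6a, Ugt1a9 and Ugt1a10), -1.09 (Ugt1a6b) and -0.97 (Ugt1a7c). Gsto1 lay at -0.57 and, like the Ugt1a rows, was called lower in duodenum and higher in spleen. Cyp4f18, higher in duodenum alone, lay at 0.80.

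The rest were called lower in duodenum and not called in spleen. With 2105 counts or more in the spleen libraries together, Cyp4v3 lay at -0.44, Cyp4f16 at -0.80 and Gsta3 at -1.07. With fewer spleen counts lay Sult1d1 at -1.09 (92 counts), Ces2e at -0.70 (225 counts), Gstm3 at -0.83 (197 counts), Cyp3a11 at -1.03 (163 counts), Cyp3a13 at -0.47 (416 counts) and Cyp2c68 at -1.52 (34 counts, too few for the spleen fit).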

How the results depend on the processing

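The 69 members called in duodenum numbered 59 to 71 with other scaling, filters, tests, dominant transcripts removed, a replicate block (68), a member minimum of 600 counts, Ugt1a rows summed (62) or 1 fit of 12 libraries (59). Leaving out 1 library gave 41 to 75, the lowest without AC H6 replicate 3, and 35 of the 69 were called in all 6 such fits, while 69 of 69 kept their sign. Scaled to enterocyte markers, 34 were called, and Gstt2 changed sign to 0.0018 (adjusted p = 0.987). The 10 spleen calls became 0 to 10 when 1 library was left out and 0 with a replicate block, and the cause was not tested. The 19 interaction calls numbered 14 to 27 under the other settings, the highest with the replicate block. Same-numbered libraries did not deviate together throughout (correlations of 0.40, 0.24 and -0.20 in duodenum and 0.26, -0.13 and -0.03 in spleen), so the numbers are not taken to pair libraries. Over the named members, 714 of the alternative duodenum values kept direction and call, 89 lost the call and 1 reversed. Calls of members under 1 CPM rest on few counts, and a median level per length of 16.1 CPM per kilobase became 17.6 with the longest transcript.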

Other observations

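Spleen AC H6 3, the library with the most hepatocyte marker reads, also held members that the other spleen libraries lacked. In 15 members its level was over 3 times that of every other spleen library, with at least 5 counts. Among them were Cyp2e1 at 4.61 CPM (at most 0.726 CPM elsewhere in spleen), Ces3a at 3.85 CPM (at most 0.0525), Ces3b at 1.80 CPM (0 elsewhere), Ces1c at 1.76 CPM (at most 0.0262) and Cyp2d9 at 1.38 CPM (0 elsewhere). The others were Ces1g, Cyp1a2, Cyp2a5, Cyp2c67, Cyp2d10, Cyp2j5, Ugt2a3, Ugt2b1, Ugt2b36 and Ugt2b5. Of the 15, Cyp2e1 alone had enough counts to be tested in spleen, where it was not called, and the other 14 were not tested.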
